A study of Mus musculus with 6 samples.

Results

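The lysosomal cathepsins are the proteases that digest protein inside the lysosome. Their transcripts were examined here in engineered mouse muscle with and without tumour necrosis factor alpha (TNF-alpha). The group was defined by symbol in the deposited count table and holds 10 genes (Ctsa, Ctsb, Ctsc, Ctsd, Ctsh, Ctsk, Ctsl, Ctso, Ctss and Ctsz) of the 24421 in it. Constructs of C2C12, an established mouse line of muscle precursor cells able to form myotubes, were grown in a type I collagen gel held by titanium tendons. Vehicle constructs received phosphate-buffered saline and treated constructs received TNF-alpha at 100 ng/mL, both for 72 h, with 3 constructs in each group. The labels call them biological replicates of a single cell line and do not say that they came from separate cultures, so p-values here describe only how these constructs vary, and that variation may be technical.

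Cathepsins are made as inactive precursors, carried to the lysosome by mannose 6-phosphate receptors and activated there at acidic pH. Most of those listed are cysteine proteases of the papain family (Ctsb, Ctsc, Ctsh, Ctsk, Ctsl, Ctso, Ctss and Ctsz), whereas Ctsd encodes an aspartic protease and Ctsa a serine carboxypeptidase. Cystatins hold cysteine cathepsins in check when they leave the lysosome. In muscle, the lysosome is the end point of autophagy, and cathepsin L is a long-known marker of wasting muscle.

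The libraries held 81713008 to 93533748 counts each. Muscle markers were abundant in both groups, at 11760 to 13650 summed CPM (library-scaled counts, TMM) in vehicle libraries and 7917 to 9041 in TNF-alpha libraries for 10 genes. Of those 10 genes, 8 fell and the differentiation factor gene Myog rose. In such bulk libraries, fewer cells of a type and less RNA per cell cannot be told apart. A gene was called risen or fallen at an edgeR quasi-likelihood p under 0.05 after Benjamini-Hochberg adjustment, and 55.5% of the 15792 tested genes were called. Of 15 macrophage and leukocyte markers, 11 were tested, of which 7 rose and 4 did not reach the threshold, and their summed level went from 33.5 to 40.3 CPM in vehicle libraries to 198 to 243 CPM in TNF-alpha libraries. Cd53, Cd14 and Cd68 made up most of that level in TNF-alpha libraries, at 125, 76.8 and 19.9 CPM. The receptor genes Csf1r and Mrc1 also rose, from 20 to 24 and 31 to 59 counts per vehicle library to 110 to 144 and 187 to 204 per TNF-alpha library. Lyz2 (9 to 14 and 17 to 36 counts) and Fcer1g (5 to 9 and 15 to 42 counts) rose with adjusted p of 0.0235 and 0.0220. Without vehicle replicate 1 or 3 or TNF-alpha replicate 2 neither call held, and that of Lyz2 was also lost without TNF-alpha replicate 1 and with DESeq2, with adjusted p of up to 0.0828 for Lyz2 and 0.0969 for Fcer1g. Among the 4 genes with too few counts to test, Ptprc (CD45) had 2 to 4 counts per vehicle library and 0 in each TNF-alpha library, Tyrobp had 0 counts in all 6 libraries, Adgre1 (F4/80) had at most 2 and Spi1 had 6 to 10. All 8 fibroblast markers were called, with 6 fallen and 2 risen. Dpt was 47.3-fold and Pi16 41.0-fold lower and Dcn rose 2.97-fold, and the summed level was 9443 to 9995 CPM in vehicle and 10780 to 11860 CPM in TNF-alpha libraries. The mean of Dcn went from 2029 to 6022 CPM, a larger rise than that of the sum. Of 6 endothelial markers 3 were tested and Tek fell, with summed levels of 2.65 to 3.76 and 1.32 to 1.65 CPM. The part of these markers in the cathepsin values was not tested.

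Cathepsin transcripts moved in different directions. Ctsl, encoding cathepsin L, rose 2.05-fold, Ctsh, Ctsd and Ctsz rose by smaller amounts, and Ctsc, encoding cathepsin C, fell 4.70-fold. Of the 10 genes, 9 passed the filter on low counts, and of these 4 rose, 1 fell and the remaining 4 did not reach the threshold. The share that rose over all tested genes was 27.6% and the share that fell was 27.9%. The median log2 fold change was 0.16 over the 9 tested genes and 0.005 over all tested genes. The TNF-alpha and vehicle libraries did not overlap in 5 of the 9 tested genes, 4 with TNF-alpha above and 1 with TNF-alpha below. For Ctss, which was not tested, they overlapped. Of all tested genes 64.5% showed no overlap, 32.6% above and 31.9% below, so the share of cathepsin genes without overlap was not above that of genes in general.

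**Figure D1:**
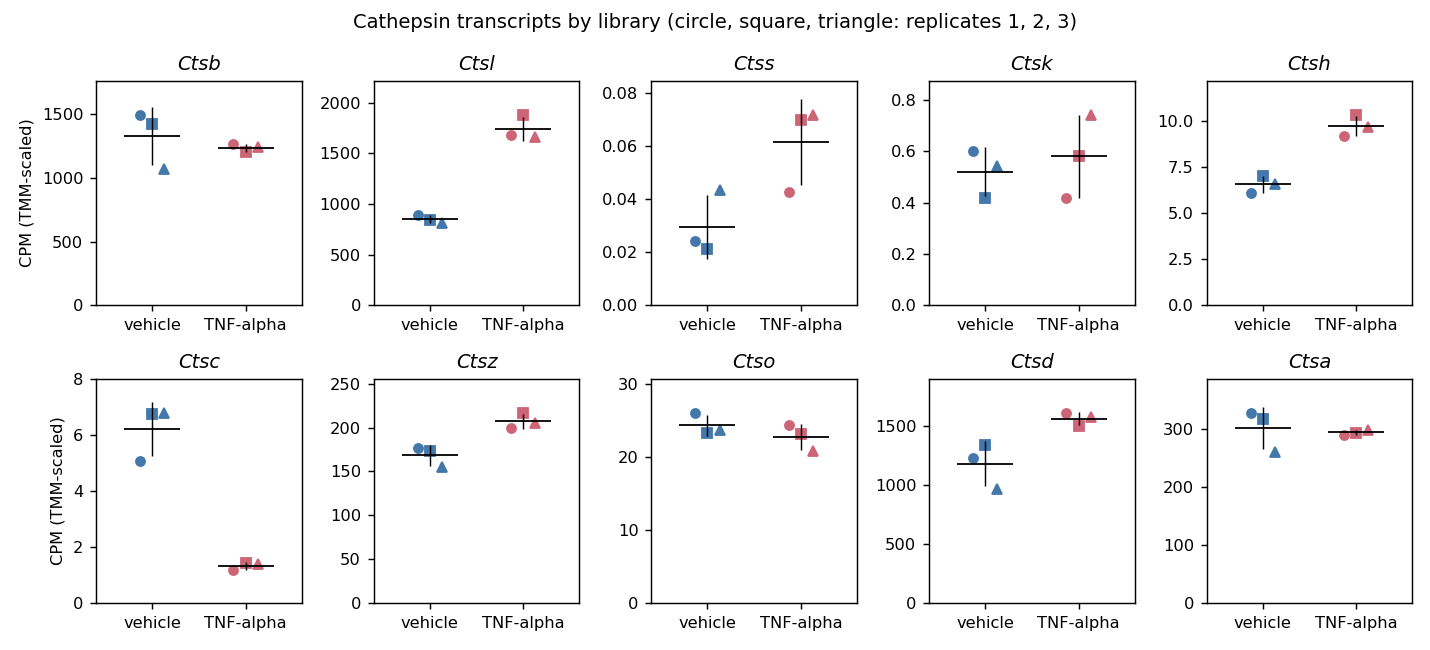
TMM-scaled CPM of each cathepsin gene in the 3 vehicle and 3 TNF-alpha libraries, with a separate linear axis from 0 for each gene. Points are libraries, the horizontal line is the group mean and the vertical line is 1 SD on each side. Ctsl, Ctsh, Ctsz and Ctsd lie higher in all 3 TNF-alpha libraries, Ctsc lies lower in all 3, and the other 5 genes overlap.

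Among the cysteine endopeptidases, Ctsl showed the largest rise. Cathepsin L is a broad-range endopeptidase that degrades much of the protein delivered by autophagy. Its gene lies on GRCm38 chromosome 13, 64359337 to 64370890 on the minus strand. It measured 889, 845 and 812 CPM in vehicle replicates 1 to 3 and 1684, 1875 and 1658 CPM in TNF-alpha replicates 1 to 3. The groups were far apart, with the lowest TNF-alpha library well above the highest vehicle library. The means were 848 ± 38.6 and 1739 ± 119 CPM (SD, n = 3), a 2.05-fold rise (log2 fold change 1.04 ± 0.08 SE, edgeR adjusted p = 1.25e-05). The Ctsl exons overlap 1742 bases of the antisense gene Gm47123 and 395 bases of Gm49230, a processed pseudogene on the same strand. Neither has a value used here, and their part in the Ctsl counts was not tested.

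Ctsb, encoding cathepsin B, an endopeptidase that also trims dipeptides from carboxyl ends, was not past the test. It lies on chromosome 14, 63122462 to 63145923, plus strand. Vehicle replicates 1 to 3 had 1493, 1428 and 1069 CPM and TNF-alpha replicates had 1269, 1202 and 1240 CPM. The TNF-alpha libraries were close together, and they fell between vehicle replicate 3, which was low, and the other two vehicle libraries. The log2 fold change was -0.10 ± 0.12 (95% interval -0.38 to 0.17, adjusted p = 0.490). Without vehicle replicate 3 it was -0.24 with an adjusted p of 0.0263, in a range of 0.0263 to 0.932 over the alternatives. The Ctsb exons overlap 774 bases of Fdft1, the squalene synthase gene on the opposite strand, and the use of strand in counting is not given in the sources used here. Fdft1 was much less abundant, at 84.2 ± 17.2 CPM in vehicle and 114 ± 8.18 CPM in TNF-alpha libraries.

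Transcripts of the cysteine endopeptidase genes Ctsk and Ctss were scarce. Ctsk, known for degrading bone collagen in osteoclasts, had 39 to 50 counts per vehicle library and 39 to 62 per TNF-alpha library. Its log2 fold change was 0.16 ± 0.30, with a 95% interval of -0.52 to 0.84 that leaves a change in either direction possible at this depth, and it was -0.06 without TNF-alpha replicate 3. Ctss, which in antigen-presenting cells cleaves the invariant chain of class II MHC, had 2, 2 and 4 counts in vehicle replicates 1 to 3 and 4, 6 and 6 counts in TNF-alpha replicates. It did not pass the filter on low counts and was not tested. The summed counts were 8 and 16, a ratio of 2.05 after scaling with an exact 95% interval of 0.826 to 5.52 that covers counting error only. With no filter its adjusted p was 0.386 and with DESeq2 it was 0.483. Both genes lie on the plus strand of chromosome 3, with 17423 bases between them.

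The exopeptidases of the group differed most from each other. Ctsc, encoding the dipeptidyl peptidase that activates the granule proteases of leukocytes and mast cells, showed the only fall past the test among the 9 tested cathepsin genes. It lies on chromosome 7, 88278085 to 88310888, plus strand. Vehicle replicates 1 to 3 had 5.09, 6.74 and 6.79 CPM (424, 631 and 625 counts), and TNF-alpha replicates had 1.17, 1.41 and 1.39 CPM (109, 121 and 116 counts). Every TNF-alpha library lay far below every vehicle library. The means of 6.21 ± 0.97 and 1.32 ± 0.13 CPM correspond to a 4.70-fold lower level (log2 fold change -2.23 ± 0.17, adjusted p = 1.15e-05). The change of Ctsc was larger in size than that of 94.4% of all tested genes.

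Ctsh, encoding cathepsin H, an aminopeptidase, was present at a similar CPM in vehicle libraries and moved the other way. It had 6.08, 7.01 and 6.60 CPM in vehicle replicates 1 to 3 and 9.21, 10.3 and 9.69 CPM in TNF-alpha replicates, with no overlap. This was a 1.48-fold rise (log2 fold change 0.57 ± 0.10, adjusted p = 0.00156).

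Ctsz, encoding cathepsin Z (also called X), a carboxypeptidase, had 177, 173 and 155 CPM in vehicle and 199, 217 and 205 CPM in TNF-alpha replicates. All TNF-alpha libraries were higher, by a modest 1.23-fold (0.30 ± 0.07, adjusted p = 0.00627). Ctsz exons overlap those of Nelfcd, on the opposite strand, by 10 bases. Ctso, a widely expressed and less studied cysteine protease gene, had 20.7 to 26.0 CPM across all 6 libraries and its groups overlapped. Its log2 fold change of -0.10 ± 0.08 (95% interval -0.29 to 0.09, adjusted p = 0.354) was not past the test.

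Of the members that are not cysteine proteases, Ctsd was the more abundant. Cathepsin D is the main aspartic protease of lysosomes, and its gene lies on chromosome 7, 142375911 to 142388038, minus strand. Vehicle replicates 1 to 3 had 1234, 1340 and 968 CPM and TNF-alpha replicates had 1614, 1507 and 1576 CPM. All TNF-alpha libraries were above all vehicle libraries, although vehicle replicate 3 was again well below the other vehicle libraries. Ctsd rose 1.33-fold, from 1181 ± 192 to 1566 ± 54.2 CPM (0.41 ± 0.12, adjusted p = 0.0155). When TNF-alpha replicate 3 was left out the adjusted p became 0.0519, in a range of 0.00151 to 0.0519 over the alternatives. Without vehicle replicate 3 the log2 fold change was 0.28 (adjusted p = 0.0217), the smallest over the alternatives. The Ctsd exons share 808 bases with Gm49369, a protein-coding gene on the same strand without a value used here, and its part in the Ctsd counts was not tested.

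Ctsa, which encodes a carboxypeptidase that also protects beta-galactosidase and neuraminidase in the lysosome, had 328, 318 and 261 CPM in vehicle and 291, 293 and 299 CPM in TNF-alpha replicates. Its groups overlapped (-0.04 ± 0.09, 95% interval -0.24 to 0.16, adjusted p = 0.729), and the sign turned without vehicle replicate 1, at 0.02. Ctsa exons overlap 495 bases of Pltp and 324 bases of Neurl2 on the opposite strand, and its counts carried decimals in 5 of 6 libraries. Pltp, a phospholipid transfer protein gene, fell by 0.49 ± 0.07 (adjusted p = 6.19e-04), and its part in the Ctsa value was not tested.

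**Figure D2:**
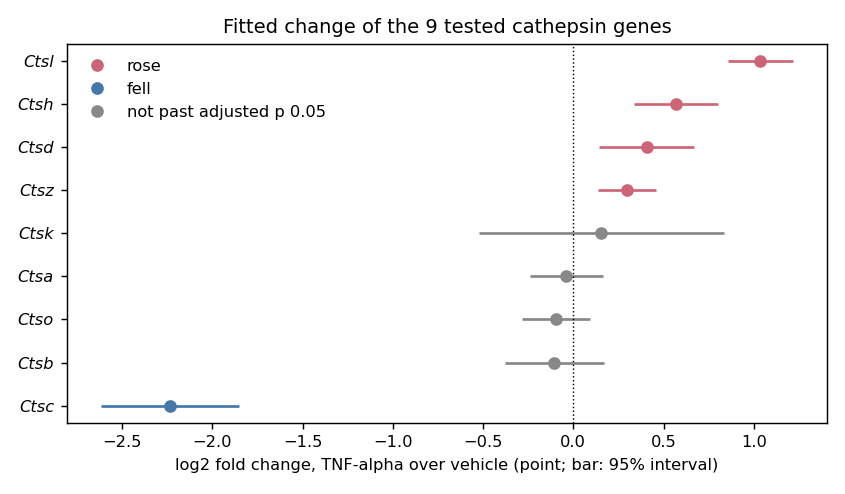
Fitted log2 fold change of TNF-alpha over vehicle for the 9 tested cathepsin genes, with 95% intervals from edgeR's quasi-likelihood fit to 3 libraries per group. Intervals of Ctsl, Ctsh, Ctsd and Ctsz lie above 0, that of Ctsc lies below 0, and those of Ctsk, Ctsa, Ctso and Ctsb include 0.

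Levels of different genes were compared per kilobase of exon, since longer transcripts collect more reads. On this scale the cathepsins ranged in vehicle libraries from Ctsd at 502 ± 81.5 CPM per kilobase to Ctss at 0.0218 ± 0.0089. The order in vehicle libraries was Ctsd, Ctsb, Ctsl, Ctsz, Ctsa, Ctso, Ctsh, Ctsc, Ctsk and Ctss. In TNF-alpha libraries Ctsl, at 268 ± 18.3 CPM per kilobase, stood above Ctsb at 204 ± 5.62, and Ctsk stood above Ctsc. The library ranges of neighbours in each order did not overlap. With the length of the longest transcript in place of the union of exons, however, Ctsc and Ctsk took the reverse order in TNF-alpha libraries and their ranges overlapped. For Ctsl both lengths were close, at 6489 bases for the union and 6168 for the longest transcript. For Ctsb they differed more, at 6051 and 4743 bases. With the longest transcript, Ctsl and Ctsb had means of 282 and 261 CPM per kilobase in TNF-alpha libraries. The lowest TNF-alpha library for Ctsl, at 268.8, was then barely above the highest for Ctsb, at 267.6. A shorter transcript would raise the Ctsl level per kilobase in both groups, and which transcripts were present was not tested. The 5 most abundant members all lay above the 95th percentile of per-kilobase levels over 15179 tested genes with a known length, in both groups (95.1 to 99.7).

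Together the 10 genes took 0.424%, 0.417% and 0.332% of all counts in vehicle replicates 1 to 3 and 0.509%, 0.507% and 0.491% in TNF-alpha replicates. The pool was thus higher in all 3 TNF-alpha libraries, with the widest gap to vehicle replicate 3. Its makeup per kilobase also differed. Ctsl went from 12.7% ± 1.35 to 19.8% ± 1.38 of the summed level, Ctsb from 21.0% ± 1.14 to 15.1% ± 0.35 and Ctsa from 6.17% ± 0.18 to 4.62% ± 0.10 (SD, n = 3). The levels of Ctsb and Ctsa themselves were not past the test. Their lower shares are of a larger sum, 1041 ± 137 CPM per kilobase in vehicle and 1352 ± 10.1 in TNF-alpha libraries. Ctsd remained the largest component in every library, at 46.6% to 50.4%. The ratio of Ctsl to Ctsb per kilobase was 0.555, 0.551 and 0.708 in vehicle replicates and 1.24, 1.46 and 1.25 in TNF-alpha replicates. At the exon lengths used, Ctsl was thus below Ctsb in every vehicle library and above it in every TNF-alpha library. These shares depend on the lengths taken for the genes, and the side of Ctsb on which Ctsl lies depends on those of Ctsl and Ctsb.

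**Figure D3:**
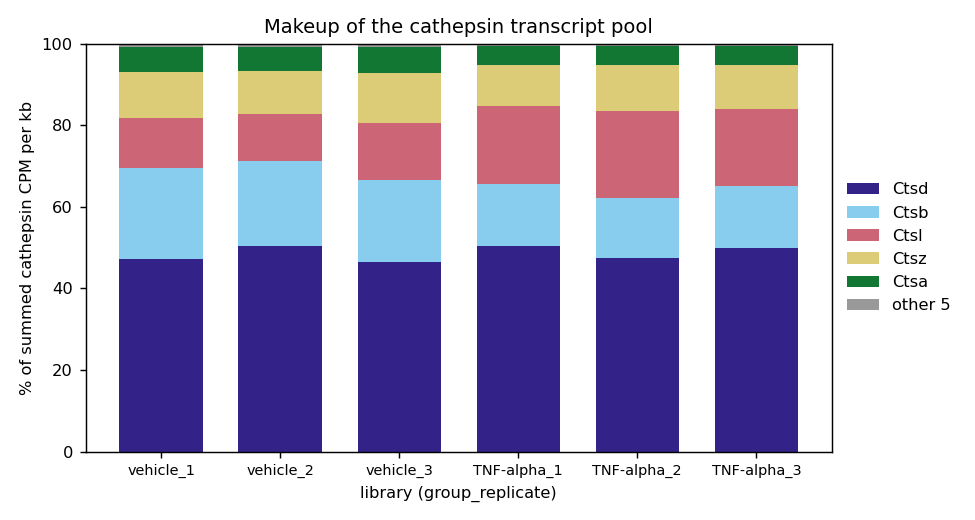
Shares of the summed cathepsin level (TMM-scaled CPM per kilobase of exon) in each of the 6 libraries, in percent. Ctsd, Ctsb, Ctsl, Ctsz and Ctsa are drawn singly and the other 5 genes as a summed segment. Ctsl holds 11.5% to 14.2% in vehicle and 19.0% to 21.4% in TNF-alpha libraries, Ctsb holds 19.98% to 22.3% and 14.7% to 15.4%, and the other 5 genes are barely visible.

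Transcripts of cathepsin inhibitors changed as well, in opposite directions. Of 16 genes listed, 5 were tested, of which 3 fell and 2 rose, and 7 had 0 counts in every library. Cst3 encodes cystatin C, the main secreted inhibitor of cysteine cathepsins. It had 676, 694 and 558 CPM in vehicle replicates and 238, 284 and 269 CPM in TNF-alpha replicates, 2.43-fold lower (log2 fold change -1.28 ± 0.10, adjusted p = 1.62e-05). Its lowest vehicle library was still well above its highest TNF-alpha library.

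Cstb, encoding the cytosolic inhibitor cystatin B, rose from 83.6 ± 12.1 to 121 ± 4.85 CPM (0.53 ± 0.10, adjusted p = 0.00204). Cst6, encoding the secreted cystatin M, rose 1.87-fold to 34.3 ± 1.90 CPM (0.91 ± 0.09, adjusted p = 4.17e-05). Ctla2a, whose product resembles a cathepsin propeptide and inhibits cathepsin L, fell from 37.9 ± 2.16 to 10.3 ± 3.03 CPM (-1.89 ± 0.21, adjusted p = 2.61e-04). The log2 fold change of its close paralog Ctla2b was -0.74 ± 0.26 (adjusted p = 0.0359), and -0.48 without TNF-alpha replicate 1. Both have counts with decimals and can share reads, so the split between them is uncertain. The Ctla2b call was lost without any of vehicle replicates 1, 2 and 3 or TNF-alpha replicate 3, with adjusted p of 0.0519 to 0.0949. Cstb and Ctla2b were named after their values were seen.

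**Figure D4:**
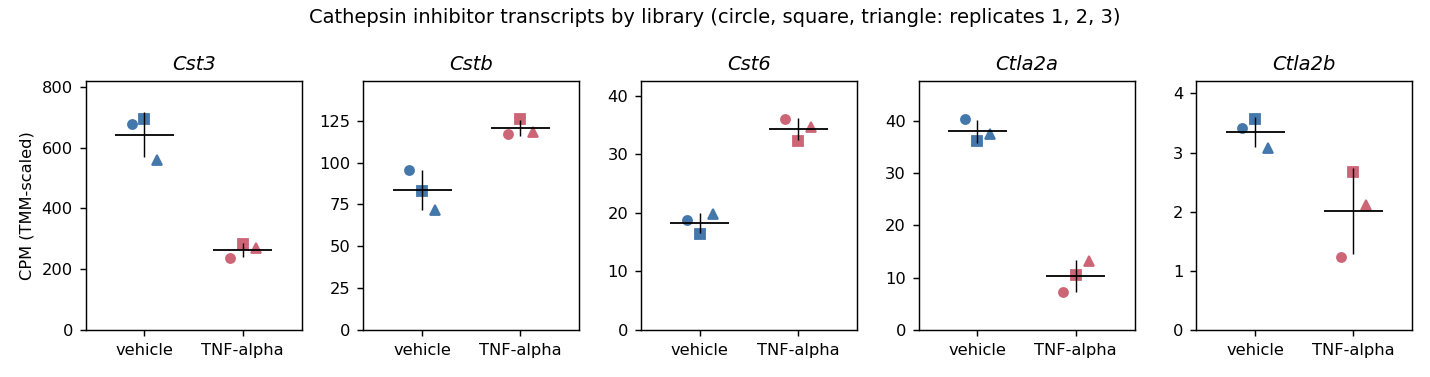
TMM-scaled CPM of the 5 tested cathepsin inhibitor genes in the 3 vehicle and 3 TNF-alpha libraries, with a separate linear axis from 0 for each gene. Lines give the group mean and 1 SD on each side. Cst3, Ctla2a and Ctla2b are lower and Cstb and Cst6 higher in all 3 TNF-alpha libraries.

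Other cathepsin genes, many of them known from placenta, had few counts apart from Ctsf. Of 13 listed, 6 had 0 counts in every library and 3 were tested (Ctsf, Ctsw and Cts8), with adjusted p of 0.0890, 0.228 and 0.689. Ctsf, encoding the cysteine protease cathepsin F, had 20.2 ± 0.87 CPM in vehicle and 17.4 ± 2.12 CPM in TNF-alpha libraries. Leaving out TNF-alpha replicate 1 gave Ctsf an adjusted p of 0.0112. Ctsw, known from cytotoxic lymphocytes, had 2.25 ± 0.69 and 1.75 ± 0.19 CPM (adjusted p = 0.228, and 0.0432 without vehicle replicate 3).

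Other lysosomal genes were compared with the cathepsins from lists of peptidases, hydrolases, proton pump subunits, membrane proteins and sorting factors. Among 97 such genes with a test, risen genes numbered 14 (14.4%) and fallen genes 36 (37.1%), against 27.6% and 27.9% over all tested genes. Their median log2 fold change was -0.10. Without vehicle replicate 3, 12 rose and 47 fell, an alternative chosen after seeing the data. Whether the cathepsins differ from these genes was not tested.

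Of the 7 tested genes in the list of other peptidases, which includes Pepd, 3 fell and 4 did not reach the threshold. The carboxypeptidase gene Cpq fell by 0.82 ± 0.07 (adjusted p = 2.31e-05) and the carboxypeptidase gene Prcp by 0.55 ± 0.08 (adjusted p = 3.78e-04). Lgmn, encoding legumain, the asparaginyl endopeptidase that processes several cathepsin precursors, had 160 ± 14.1 and 154 ± 2.69 CPM (adjusted p = 0.523).

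Among 35 genes listed under hydrolases of sugars, lipids and nucleic acids, which include Hgsnat, 4 rose and 14 fell. Hyal1, a hyaluronan-degrading enzyme, rose 6.96-fold to 33.1 ± 1.81 CPM (2.80 ± 0.09, adjusted p = 1.19e-07), whereas the sulfatase gene Ids fell by 0.70 ± 0.06 (adjusted p = 1.42e-05). Rnaset2b, a lysosomal ribonuclease gene with a close paralog, fell by 0.69 ± 0.06 (adjusted p = 2.68e-05).

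Of 21 subunits and accessory proteins of the vacuolar ATPase, the pump that acidifies the lysosome, 2 rose and 6 fell. Atp6v1g1 fell by 0.67 ± 0.12 and Atp6ap2 by 0.54 ± 0.10, and Atp6v0e2 rose by 0.84 ± 0.12 (adjusted p = 0.00169, 0.00198 and 4.70e-04). Among 21 membrane proteins and transporters, 4 rose and 7 fell. The tetraspanin gene Cd63 fell by 0.72 ± 0.10 and Laptm4a by 0.67 ± 0.07 (adjusted p = 2.85e-04 and 8.82e-05), while the iron transporter gene Slc11a2 rose 2.42-fold (1.28 ± 0.13, adjusted p = 1.06e-04).

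Of 13 genes for enzyme sorting and activators, 4 rose and 6 fell. M6pr, encoding the cation-dependent mannose 6-phosphate receptor that delivers cathepsins to lysosomes, rose from 114 ± 4.49 to 150 ± 9.43 CPM (0.39 ± 0.07, adjusted p = 9.83e-04). Nagpa, the enzyme that uncovers the mannose 6-phosphate tag, fell by 0.65 ± 0.12 (adjusted p = 0.00187), and the sorting adaptor gene Gga2 fell by 0.47 ± 0.06 (adjusted p = 2.44e-04). Of 14 tested transcription factors and nutrient-sensing genes, 3 rose and 5 fell. Tfeb and Tfe3 encode related factors that activate lysosomal genes. Tfeb fell from 25.1 ± 3.65 to 16.9 ± 2.06 CPM (-0.57 ± 0.13, adjusted p = 0.00516) and Tfe3 rose from 59.7 ± 3.22 to 87.2 ± 1.63 CPM (0.55 ± 0.06, adjusted p = 8.84e-05).

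**Figure D5:**
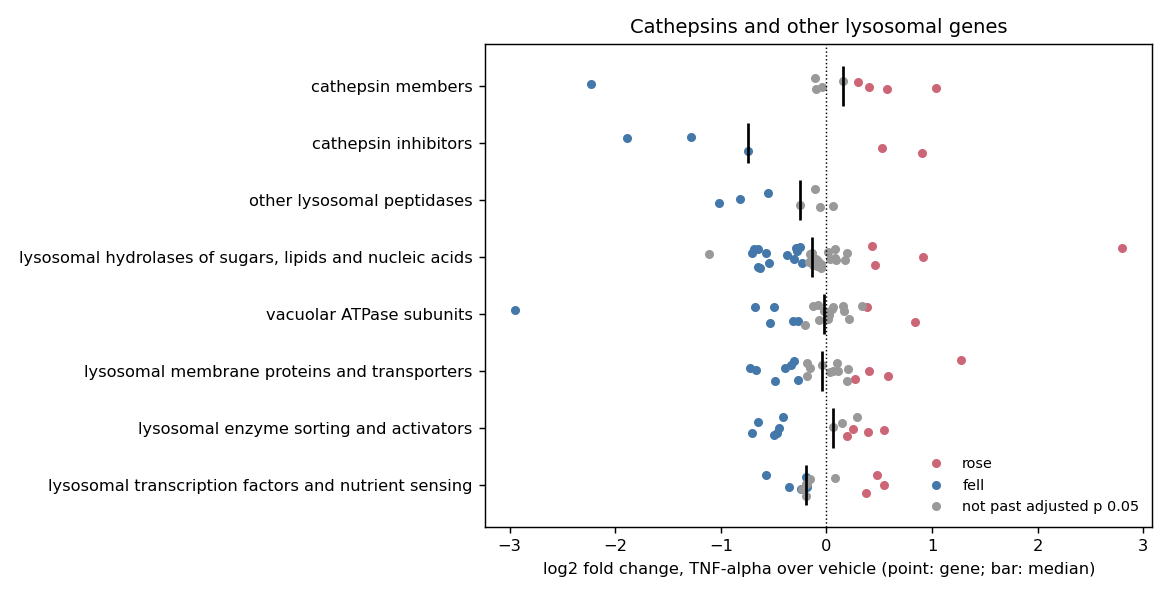
Log2 fold change of TNF-alpha over vehicle for the tested genes of each list, where each point is a gene, colour gives the edgeR call and the black bar is the list's median. Cathepsin members run from -2.23 (Ctsc) to 1.04 (Ctsl), with a median of 0.16, and the medians of the lists below them lie between -0.74 and 0.07.

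Tfeb and Tfe3 bind an E-box, CACGTG, within a longer palindrome named CLEAR. The RefSeq promoter table (GRCm38.p6) held windows for 8 of the 10 genes, and no window for Ctsb or Ctsh. The 250 bases before each RefSeq start were searched on both strands. For Ctsl and Ctsd that start lies 370 and 211 bases inside the outermost 5′ end that GENCODE gives the gene, and the second start of Ctsa lies 900 bases inside, so these windows hold transcribed sequence of longer isoforms. The E-box was present in 3 of 9 cathepsin windows (those of Ctsd and Ctsl and the second of Ctsa), against 6.02% of 32851 windows. Its 8-base core TCACGTGA, which contains the E-box, was present in 2 of the 9 (Ctsa and Ctsd), against 0.785% of windows, and the full palindrome, the core with a G before and a C after it, was in 0 of 9, against 0.24%. The genes with an E-box were Ctsd and Ctsl, which rose, and Ctsa, which was not past the test. Ctsz also rose and its window held no E-box, and Ctsh, which rose, had no window to search. The 30 bases around each match are shown 5′ to 3′ on the gene's strand, with the E-box in capitals, because these matches set Ctsa, Ctsd and Ctsl apart from the other windows. Positions are counted from the RefSeq start.
Ctsl (chr13:64370739-64370768, minus strand, position -236, partly in a GENCODE exon of Ctsl): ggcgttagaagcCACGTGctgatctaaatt
Ctsd (chr7:142388048-142388077, minus strand, position -245, outside the GENCODE gene): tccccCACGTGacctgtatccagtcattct
Ctsd (chr7:142387908-142387937, minus strand, position -98, in a GENCODE exon of Ctsd): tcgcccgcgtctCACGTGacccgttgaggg
Ctsa (chr2:164833749-164833778, plus strand, position -12 from the second start, in a GENCODE exon of Ctsa): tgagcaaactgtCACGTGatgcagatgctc

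The window before Ctsc is given because Ctsc had the largest change among the cathepsin genes. It held no E-box and no match to a loose form of the NF-kB site, GGG and CC with any 5 bases between, searched on both strands. The windows of Ctsk and Ctss also held no E-box and no such match, so this absence is not particular to Ctsc. That loose form was present in 45.8% of all windows and in 5 of the 9 cathepsin windows (both of Ctsa and those of Ctsd, Ctso and Ctsz). A match describes the letters only, and no binding was measured.
Ctsc (chr7:88277835-88278084, plus strand, 250 bases before the start, all in lower case as nothing is marked): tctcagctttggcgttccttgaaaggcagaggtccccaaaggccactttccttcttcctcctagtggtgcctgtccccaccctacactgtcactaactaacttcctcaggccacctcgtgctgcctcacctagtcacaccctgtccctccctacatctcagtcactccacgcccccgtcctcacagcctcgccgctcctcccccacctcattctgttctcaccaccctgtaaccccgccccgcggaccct

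Ctsk and Ctss are best known from osteoclasts and antigen-presenting cells. Of 9 osteoclast markers 5 were tested, of which 3 rose (Mmp9, Itgb3 and Nfatc1) and 2 did not reach the threshold. Acp5 had 17 to 42 counts per vehicle library and 8 to 15 per TNF-alpha library, and Calcr had at most 2. The list's summed level went from 61.6 to 80.2 CPM in vehicle to 352 to 601 CPM in TNF-alpha libraries, mostly Mmp9 (308 ± 86.6 CPM in TNF-alpha libraries), Itgb3 (158 ± 49.5 CPM) and Nfatc1 (39.0 ± 4.43 CPM). The part of this list in the Ctsk and Ctss values was not tested. Of 11 class II antigen presentation genes, the partners of Ctss in antigen-presenting cells, 4 had 0 counts in every library and 3 were tested. Cd74, the invariant chain gene, had 9 to 41 counts per vehicle library and 46 to 83 per TNF-alpha library (1.48 ± 0.49, adjusted p = 0.0304). The Cd74 call was lost without vehicle replicate 1 or 3 or TNF-alpha replicate 2 or 3, with adjusted p of 0.0510 to 0.100.

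The genes nearest to Ctsc in pattern were sought among 10849 genes with at least 5 CPM in a group, by the root-mean-square difference of log2 CPM, centred on the vehicle mean, over the 6 libraries. They were Cacna1s, the voltage sensor of skeletal muscle (difference 0.08), Ablim3, an actin-binding protein gene (0.11), and Kif24, a kinesin gene (0.11). Cacna1s fell from 304 ± 60.2 to 64.5 ± 5.87 CPM (-2.24 ± 0.15, adjusted p = 2.09e-05), and thus 4.71-fold, beside 4.70-fold for Ctsc. A fold change close to that of Ctsc follows from the way these genes were chosen and is not a separate result.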

How the data were processed

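RNA sequencing libraries (stranded mRNA kit, paired-end, per the labels' protocols) of 3 vehicle and 3 TNF-alpha constructs were used. The authors deposited estimated counts per gene symbol, since 20.1% to 21.0% of the values of a library carry decimals. TopHat2 2.1.1, Bowtie2 2.3.5.1, featureCounts, Subread 2.0.0 and DESeq2 are named, without their roles, beside mm10 and GRCm38, per the submitters' processing notes. How reads were counted, and whether by strand, is not given in the sources used here, so genes that overlap or share reads are uncertain.

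Counts were rounded, filtered with filterByExpr and scaled with TMM, and groups were compared with edgeR 4.0.16 (R 4.3.3; glmQLFit with robust estimation, glmQLFTest), with Benjamini-Hochberg adjustment over 15792 genes. The plan had named whole counts and, if they carried decimals, rounding. CPM values used unrounded counts and are mean ± SD, and standard errors came from the F statistic. Positions and exon lengths came from GENCODE M21 (GRCm38), promoter sequences from RefSeq (GRCm38.p6). The members and lists were chosen with earlier results of these data known. Named genes were the members, for each list the 2 genes with the smallest p in its main direction and 1 in the other, and the 3 nearest to the member with the largest change. Cstb, Ctla2b, Ctsf, Ctsw, Lgmn, Acp5, Nfatc1, Cd53, Csf1r, Mrc1, Lyz2, Fcer1g, Spi1, Ptprc, Tyrobp, Adgre1, Calcr, Cts8 and the genes overlapping a member were named after their values were seen. Ckm, Myh3 and Rragd, which this rule also selects, are not described. Replicates differed by more than sampling noise (chi-square per degree of freedom 23.4 to 71.6), and each was kept as its own sample. The procedure was tested on simulated counts. Tried in turn were no filter, scaling by median ratio or by upper quartile, a filter of at least 1 CPM in 3 libraries, DESeq2 1.42.0, limma-voom (limma 3.58.1), no robust estimation, a replicate block and leaving out each library.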

Additional observations from a re-analysis of the deposited data

How the results depend on the processing

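The counts of cathepsin genes that rose (4) and fell (1) were the same under each of the alternatives that kept all 6 libraries. Leaving out 1 library gave 3 to 4 risen and 1 to 2 fallen cathepsin genes, the second fall being Ctsb without vehicle replicate 3. The Ctsk log2 fold change was -0.0594 to 0.349 and the Ctsa log2 fold change -0.140 to 0.0208 with 1 library left out, with the sign turned without TNF-alpha replicate 3 and vehicle replicate 1. With the longest transcript as length, 2 members changed rank in the TNF-alpha order, and Ctsl stayed above Ctsb by a smaller margin. A length for Ctsl below that of its longest transcript was not tried. The median log2 fold change of all genes was 0.004 with median-ratio and -0.029 with upper-quartile scaling. Samples of equal replicate number did not deviate together (correlations 0.04, -0.05 and -0.11), so the numbers were not taken to pair the samples, and not every sample correlated best with its own number. The replicate block gave 8486 calls over all genes, against 8769 without it. For the named genes, 873 values under an alternative kept their direction and side of the threshold, 27 calls were lost, 3 were gained and 2 turned sign. The other lysosomal genes, counted under alternatives chosen after seeing the data, gave 11 to 17 risen and 31 to 47 fallen. The depth limits Ctss and Ctsk.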

Other observations

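Vehicle replicate 3 stood apart in its lysosomal transcripts. Of the 97 other lysosomal genes tested, 75 (77.3%) had their lowest vehicle level in that library, against 32.9% of all tested genes, and so did 5 of the 9 tested cathepsin genes. Ctsb, Ctsd and Ctsa there were 0.732, 0.752 and 0.808 times the mean of the other two vehicle libraries, whereas Ctsh was 1.01 times and Ctsc 1.15 times that mean. The summed level of the 21 lysosomal membrane proteins was 4765, 4566 and 3921 CPM in vehicle replicates 1 to 3 and 3624 to 3831 CPM in TNF-alpha libraries. For the 35 genes listed under hydrolases, vehicle replicate 3, at 2146 CPM, lay within the TNF-alpha range of 2108 to 2160 CPM. Vehicle replicates 1 and 2 had 2493 and 2477 CPM. The pattern was noticed in these data.

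Atp6v0d2, a subunit of the vacuolar ATPase known from osteoclasts, was named after its values were seen. It fell from 26.4 ± 12.4 to 3.43 ± 0.61 CPM (log2 fold change -2.95 ± 0.44, edgeR adjusted p = 0.00226), with 1125 to 3297 counts per vehicle library and 257 to 338 per TNF-alpha library. Dpp7 and Hgsnat were likewise named after their values were seen. Dpp7, a lysosomal dipeptidyl peptidase gene, was 2.02-fold lower in TNF-alpha libraries (-1.02 ± 0.19, adjusted p = 0.00390), from 52.4 ± 12.6 to 25.9 ± 3.69 CPM. Hgsnat, an enzyme of heparan sulfate breakdown, rose 1.89-fold (0.92 ± 0.06, adjusted p = 4.60e-06).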
